A study of Danio rerio with 6 samples.

Results

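Inorganic phosphate enters the body through the gut, where sodium-dependent cotransporters of the brush border carry it into absorptive cells. In mammals the intestinal Slc34 protein NaPi-IIb (Slc34a2) does so at the apical membrane, the ubiquitous Slc20 proteins (Pit1 and Pit2) import phosphate into most cells, and Xpr1 exports it. Vitamin D, fibroblast growth factor 23 and parathyroid hormone take part in the control of phosphate balance. The genes of these 3 transporter families were followed here in the guts of zebrafish larvae.

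The members were chosen by symbol, and 8 were named: slc34a2a, slc34a2b, slc34a1a, slc20a1a, slc20a1b, slc20a2, xpr1a and xpr1b. The count table listed 7 of them among 15419 genes, and slc34a1a was not analysed here. Of these 7, slc20a1a was listed with 0 counts in every library, and the other 6 were tested. The family was picked because slc34a2a had been called in the comparison of the genotypes given below. Its difference between the genotypes is therefore a description here and supports nothing further.

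Bulk mRNA libraries had been made from guts dissected from larvae at 5 days post-fertilization (dpf), 3 from wild-type (WT) larvae and 3 from larvae homozygous for a CRISPR/Cas9 deletion in il26 (il26-/-, labelled il26KO), a cytokine gene of the IL-10 family. Each library pooled 10 to 15 guts. WT and mutant parents were clutchmates kept in separate tanks, so genotype cannot be told apart from parents or tank, and the mutant line carried 1 deletion allele. Larvae were conventionally reared, no treatment was given, and feeding in that facility starts only after this age. Libraries held 15693057 to 28303340 counts, and 3 counts corresponded to 0.106 to 0.192 CPM, the counts divided by each library's normalized total and brought to a common scale. The targeted gene could not check the labels, because il26 had 0 counts in all 6 libraries. Of 8 enterocyte markers all were listed, with summed levels of 18515 to 21838 CPM in WT and 20353 to 20836 CPM in il26KO. The sum was thus high in every library, but 1 marker, fabp2, had only 45 counts over the 6 libraries. Markers of acinar pancreas, hepatocytes and skeletal muscle were also abundant and overlapped between the genotypes. CPM values are not scaled by transcript length. Levels are therefore compared mainly between libraries. Ratios, shares and sums over genes also carry differences in transcript length.

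Expression of slc34a2a, which encodes an intestinal-type Slc34 cotransporter, was higher in il26KO guts than in WT guts, whereas the other transporter genes showed no such separation. For slc34a2a there were 447, 451 and 466 CPM in WT replicates 1, 2 and 3. There were 875, 735 and 748 CPM in il26KO replicates 1, 2 and 3. All il26KO libraries lay above all WT libraries, and the gap between the groups was wider than the spread inside either. The 3 WT libraries averaged 455 CPM and the 3 il26KO libraries averaged 786 ± 77.3 CPM (SD), a 1.73-fold difference. On the log2 scale this was 0.79 ± 0.091 (SE), with a 95% interval of 0.58 to 0.9987. The WT libraries were close together, with a coefficient of variation of 2.24%, where counting error alone gives 0.934%. In il26KO the coefficient of variation was 9.84%, and replicate 1 held the highest value.

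The value that brought the family into view was the adjusted p-value of slc34a2a, 0.0291 (edgeR quasi-likelihood test, Benjamini-Hochberg over 11095 genes). Of the 6 tested members 1 was called, against 0.108% of all tested genes called in either direction and 0.0631% called higher in il26KO. Because the members were picked with that call known, nothing is read from this count. Likewise, 1 of 6 members had libraries that did not overlap between genotypes, against 10.9% of all tested genes, and 5.94% of all tested genes had every il26KO library above every WT library. All 6 members had a positive log2 fold change, with a median of 0.076 against 0.011 over all tested genes, of which 5907 of 11095 were positive. Nothing is read from that count, since the sign of slc34a2b, slc20a2, xpr1a and xpr1b reversed in 1 or more of the alternatives tried. The fold change of slc34a2a kept its size when each library was left out in turn, with log2 values of 0.69 to 0.82. None of those 6 fits called the gene, with edgeR adjusted p-values of 0.0769 to 0.245.

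**Figure D1:**
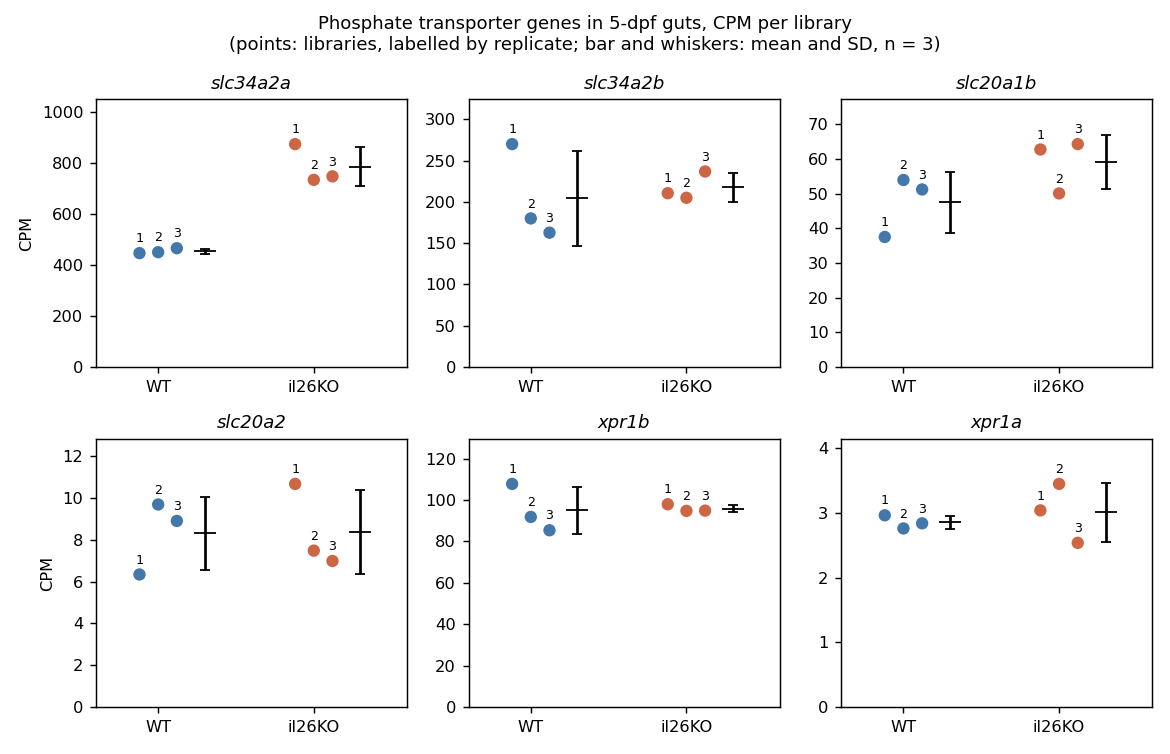
CPM per library (y axis, each panel starting at 0) for the 6 phosphate transporter genes with enough counts, WT in blue and il26KO in orange. Points are libraries labelled by replicate, and bars with whiskers give the mean and SD of 3 libraries. Only in the slc34a2a panel do the il26KO points (735 to 875 CPM) lie apart from the WT points (447 to 466 CPM).

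**Figure D2:**
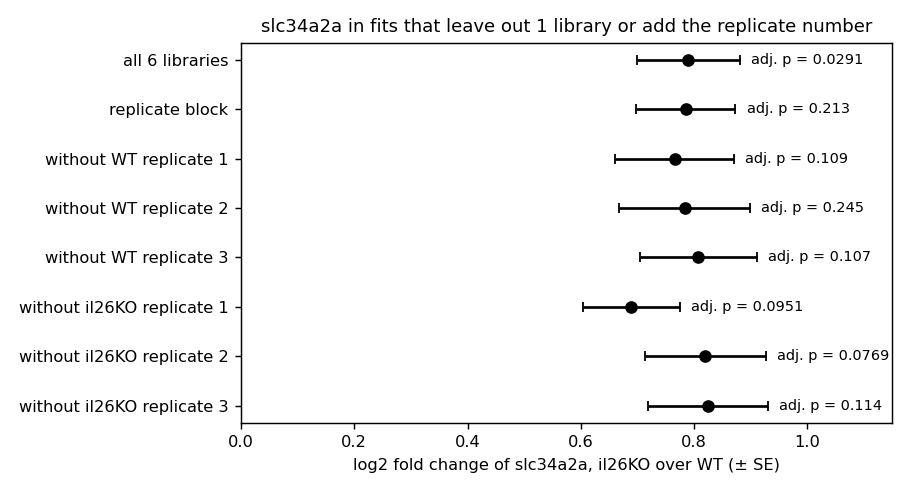
Log2 fold change of slc34a2a (x axis, il26KO over WT, whiskers ± SE) in the fit of all 6 libraries, with the replicate number as a block, and with each library left out. The 6 fits that leave out a library give 0.69 to 0.82, each with an adjusted p-value above 0.05.

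The paralog slc34a2b encodes the other intestinal-type Slc34 cotransporter. It had 270, 180 and 163 CPM in WT replicates 1, 2 and 3 and 210, 205 and 237 CPM in il26KO replicates 1, 2 and 3. WT replicate 1 was the highest of all 6 libraries, and the il26KO libraries lay inside the WT range. Its log2 fold change was 0.091 ± 0.18 (SE; edgeR adjusted p = 0.968), with a 95% interval of the fold of 0.798 to 1.42. That interval does not show that slc34a2b was equal in both genotypes.

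The ratio of slc34a2a to slc34a2b counts inside a library does not depend on library size, and transcript length cancels when it is followed from library to library. It was 1.66, 2.50 and 2.87 in WT replicates 1, 2 and 3, and 4.16, 3.58 and 3.16 in il26KO replicates 1, 2 and 3. The groups did not overlap, with WT replicate 3 closest to il26KO replicate 3. Thus slc34a2a supplied 69.3 ± 6.17% (SD, n = 3) of the summed counts of the pair in WT, against 78.3 ± 2.32% (SD, n = 3) in il26KO. The family was picked for the difference in slc34a2a, so this ratio and share contain that difference and support nothing further. The spread in WT came mostly from slc34a2b, whose coefficient of variation was 28.2% there and 7.82% in il26KO. How reads matching both paralogs were counted is not given in the sources used here, and the counts are not scaled by transcript length. The share of each paralog was uncertain to that extent.

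The table also listed slc34a2aas, an antisense RNA gene whose span covers the whole of slc34a2a in the RefSeq gene table for GRCz12tu. It was added after the table had been seen. Its counts were 23, 23 and 26 in WT replicates 1, 2 and 3 and 16, 10 and 23 in il26KO replicates 1, 2 and 3. On the CPM scale the il26KO libraries (0.639 to 0.811) all lay below the WT libraries (0.847 to 1.09). With so few counts the difference was not past the threshold (log2 fold change -0.37 ± 0.24 SE; edgeR adjusted p = 0.901). There were 429 to 532 sense counts for each antisense count in WT and 922 to 1204 in il26KO. The slc34a2a difference that chose the family is part of this ratio too. The libraries were stranded, but the strand setting of the counting is not given in the sources used here, so reads of sense and antisense origin cannot be told apart.

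**Figure D3:**
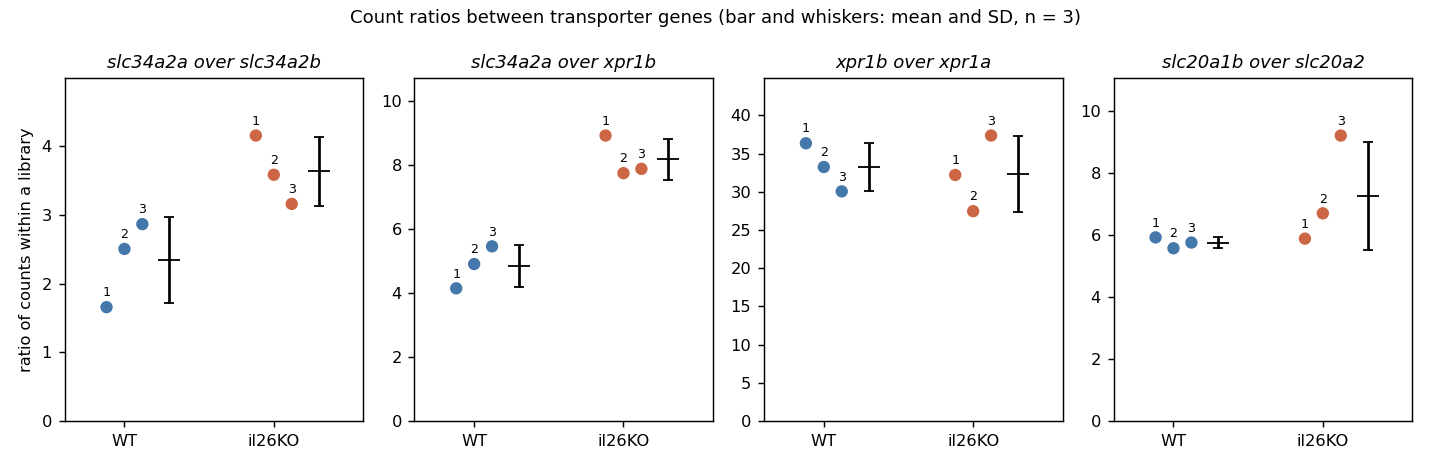
Ratio of the counts of gene pairs inside each library (y axis, each panel starting at 0), WT in blue and il26KO in orange, with the mean and SD of 3 libraries. The ratio slc34a2a over slc34a2b is 1.66 to 2.87 in WT and 3.16 to 4.16 in il26KO, while xpr1b over xpr1a and slc20a1b over slc20a2 overlap between the genotypes.

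The Slc20 genes encode type III sodium-phosphate cotransporters, first known as receptors for retroviruses. For slc20a1b, a Pit1 gene, there were 37.5, 53.9 and 51.2 CPM in WT replicates 1, 2 and 3 and 62.7, 50.04 and 64.3 CPM in il26KO replicates 1, 2 and 3. Replicates 1 and 3 of il26KO lay above every WT library, while replicate 2 lay inside the WT range. The log2 fold change was 0.31 ± 0.15 (SE), with a 95% interval of -0.040 to 0.67 (edgeR adjusted p = 0.857). Without single libraries it was 0.16 to 0.41, lowest without WT replicate 1. WT replicate 1, the library that was highest for slc34a2b, was the lowest for slc20a1b. The ratio of slc34a2a to slc20a1b counts overlapped between the genotypes, at 8.36 to 11.9 in WT and 11.6 to 14.7 in il26KO.

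For slc20a2, the Pit2 gene, there were 6.34, 9.69 and 8.90 CPM in WT replicates 1, 2 and 3 and 10.7, 7.48 and 6.98 CPM in il26KO replicates 1, 2 and 3. The groups overlapped over most of their range. Its log2 fold change was 0.011 ± 0.21 (SE; edgeR adjusted p = 0.997), and its sign changed without WT replicate 1 or il26KO replicate 1. With slc20a1a at 0 counts, the other Pit1 copy gave no value in these counts. The ratio of slc20a1b to slc20a2 counts was 5.57 to 5.92 in WT and reached 9.20 in il26KO replicate 3.

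Xpr1 is the phosphate exporter of animal cells, gated by inositol pyrophosphates, and in zebrafish xpr1b is needed for microglia and osteoclasts. For xpr1b there were 108, 91.8 and 85.4 CPM in WT replicates 1, 2 and 3 and 98.0, 94.8 and 94.9 CPM in il26KO replicates 1, 2 and 3. All il26KO values lay inside the WT range. The SD over 3 libraries was 11.5 CPM in WT against 1.82 CPM for the mutant libraries. For the genotype difference the log2 value was 0.013 ± 0.098 (SE; edgeR adjusted p = 0.992), with a 95% interval of the fold of 0.863 to 1.18. For its paralog xpr1a there were 2.76 to 2.97 CPM in WT and 2.54 to 3.45 CPM in il26KO, from 54 to 75 counts a library. Its log2 fold change was 0.061 ± 0.16 (SE; edgeR adjusted p = 0.977). The WT coefficient of variation of xpr1a, 3.59%, was below the 11.8% that counting error alone gives, so differences of that size were not detectable at this depth.

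The members were also compared with slc34a2a over the 6 libraries. The Pearson correlation of log2 CPM with slc34a2a was 0.20 for slc34a2b, 0.67 for slc20a1b, 0.17 for slc20a2, 0.23 for xpr1a and 0.089 for xpr1b. After the genotype means had been removed it was -0.24 for slc34a2b, 0.38 for slc20a1b, 0.75 for slc20a2, -0.010 for xpr1a and -0.038 for xpr1b. The highest value among member pairs was 0.92 for slc34a2b and xpr1b, and it was 0.93 after the genotype means had been removed. In both of these genes WT replicate 1 held the highest value. These correlations describe 6 libraries and carry no test. All genes of a library share its depth and its dissection.

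The 5 tested genes whose log2 CPM followed slc34a2a most closely over the 6 libraries were rgs2, gadd45ab, cishb, myca and cldnc, with Pearson correlations of 0.99 each. They encode a regulator of G-protein signalling, a stress sensor, a feedback inhibitor of cytokine signalling, a Myc transcription factor and a claudin. In all 5 the il26KO libraries lay above the WT libraries, as in 5.94% of all tested genes. Because the 5 were picked for following slc34a2a over these libraries, nothing is read from that. Part of each correlation is the shared difference between the genotypes. After the genotype means had been removed it was 0.96 for rgs2, 0.87 for gadd45ab, 0.96 for cishb, 0.88 for myca and 0.94 for cldnc. These values come from the same 6 libraries that picked the genes, so high values were favoured by the choice. They carry no test. In each of the 5, as in slc34a2a, il26KO replicate 1 was the highest library.

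Levels of cell type markers were set beside the difference in slc34a2a. In bulk tissue more cells of a type and more RNA per cell cannot be told apart. Of the 8 enterocyte markers, 5 had a positive and 3 a negative log2 fold change and 0 were called (0 at an unadjusted p below 0.05). Relative to the summed enterocyte markers, slc34a2a was 1.68-fold higher in il26KO, with no overlap between the groups. With library sizes set by those markers the log2 fold change was 0.75 ± 0.10 (SE), and the call was lost (edgeR adjusted p = 0.0689). Over all marker lists the ratio of slc34a2a to summed markers ranged from 1.37-fold (goblet cell, 1 marker listed) to 3.11-fold (ionocyte). For hepatocyte, pronephros and ionocyte markers that ratio overlapped between the genotypes. The slc34a2a difference that chose the family is part of every such ratio, enterocyte markers included, so these ratios support nothing further. The goblet marker agr2 had a log2 fold change of 0.32 ± 0.16 (SE). Of the lysosome-rich enterocyte markers 2 of 5 were listed, with summed levels of 2088 to 2927 CPM in WT and 2257 to 2961 CPM in il26KO.

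Kidney tubules also use Slc34 cotransporters. Of 8 pronephros markers 6 were listed, and their summed level was 0.405 to 0.961 CPM in WT and 0.635 to 0.767 CPM in il26KO, too low for any of them to be tested. In mammals Slc34a2 also marks the lung epithelium, whose counterpart in fish is the swim bladder. Of 5 swim bladder markers 4 were listed, with summed levels of 38.4 to 64.2 CPM in WT and 40.0 to 73.4 CPM in il26KO. That sum rested mostly on anxa5b, with 6538 counts, against 575 for sftpbb, 54 for has2 and 0 for mnx1. For has2 every il26KO library lay above every WT library (log2 fold change 0.74 ± 0.36 SE), while anxa5b and sftpbb overlapped. Erythrocyte markers were the only list of the 12 whose summed level did not overlap between genotypes, at 28.23 to 51.4 CPM in WT and 17.1 to 28.21 CPM in il26KO, with the nearest libraries of the groups almost equal. All 4 erythrocyte markers were listed, and all 4 had a negative log2 fold change, against 5188 of 11095 tested genes. Over all tested genes 10.9% did not overlap between the genotypes. Among the 4 markers only hbbe1.1 did not overlap (log2 fold change -0.95 ± 0.31 SE, edgeR adjusted p = 0.658), while hbae1.1, hbae1.3 and hbbe2 did. The part of any of these cell types in the slc34a2a difference was not tested.

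The genes around the transporters were taken from 6 lists of phosphate handling genes, 96 in all, of which 75 were listed and 61 tested. None was called by the edgeR quasi-likelihood test at an adjusted p-value below 0.05, against 0.108% of all tested genes. At an unadjusted p-value below 0.05 there were 6, 5 higher and 1 lower in il26KO. These 6 are 9.84% of the 61 genes, against 6.03% of all tested genes (3.52% higher and 2.51% lower). DESeq2 called 2 of the 61, and 84 of all 11095 genes. The edgeR likelihood ratio test called 2 of the 61, and 93 of all 11095 genes. The libraries of the genotypes did not overlap in 10 of the 61 genes, or 16.4%, against 10.9% of all tested genes. The median log2 fold change was 0.058 for the lists and 0.011 for all tested genes.

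The widest differences in these lists were in cyp24a1 and cyp27b1, genes of vitamin D metabolism. In mammals the active hormone raises intestinal phosphate uptake. The hormone itself was not measured here, and a link of these genes to slc34a2a was not tested. For cyp24a1, which inactivates the hormone, there were 350, 490 and 268 CPM in WT replicates 1, 2 and 3 and 139, 128 and 197 CPM in il26KO replicates 1, 2 and 3. Every il26KO library lay below every WT library. For cyp24a1 the log2 fold change was -1.25 ± 0.24 (SE; 95% interval -1.80 to -0.70), with an unadjusted p-value of 0.000777 and an edgeR adjusted p-value of 0.191. DESeq2 and the likelihood ratio test put this gene past the threshold, with adjusted p-values of 6.29e-06 and 0.000322.

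For cyp27b1, which makes the active hormone, there were 1.14, 4.01 and 4.39 CPM in WT replicates 1, 2 and 3 and 61.8, 12.5 and 11.1 CPM in il26KO replicates 1, 2 and 3. All il26KO libraries lay above all WT libraries, and il26KO replicate 1 stood far above the other two. The log2 fold change of 3.16 ± 0.77 (SE) was the highest of all 11095 tested genes, with a wide 95% interval of 1.40 to 4.93. It was not called (edgeR adjusted p = 0.362). Without il26KO replicate 1 the log2 fold change was 1.87 ± 0.43 (SE; edgeR adjusted p = 0.509). The likelihood ratio test called it, with an adjusted p-value of 0.00501.

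The remaining genes of the vitamin D and calcium list had smaller log2 fold changes. The largest were 0.69 ± 0.41 (SE) for trpv6, whose libraries overlapped, and 0.55 ± 0.32 (SE) for slc8a1b, whose libraries did not. Both rested on few counts. The receptor gene vdrb had 8.03 to 8.90 CPM in WT and 7.16 to 8.04 CPM in il26KO, a log2 fold change of -0.18 ± 0.10 (SE). For rxrba, which encodes a partner of the receptor, all il26KO libraries (34.1 to 38.9 CPM) lay below all WT libraries (39.7 to 45.3 CPM). Its log2 fold change was -0.19 ± 0.086 (SE; edgeR adjusted p = 0.857). Of the 15 tested genes of this list, 8 had a positive and 7 a negative log2 fold change, with a median of 0.029. Libraries did not overlap in 4 of the 15, or 26.7%, against 10.9% of all tested genes. The list is short, so nothing is read from these counts.

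**Figure D4:**
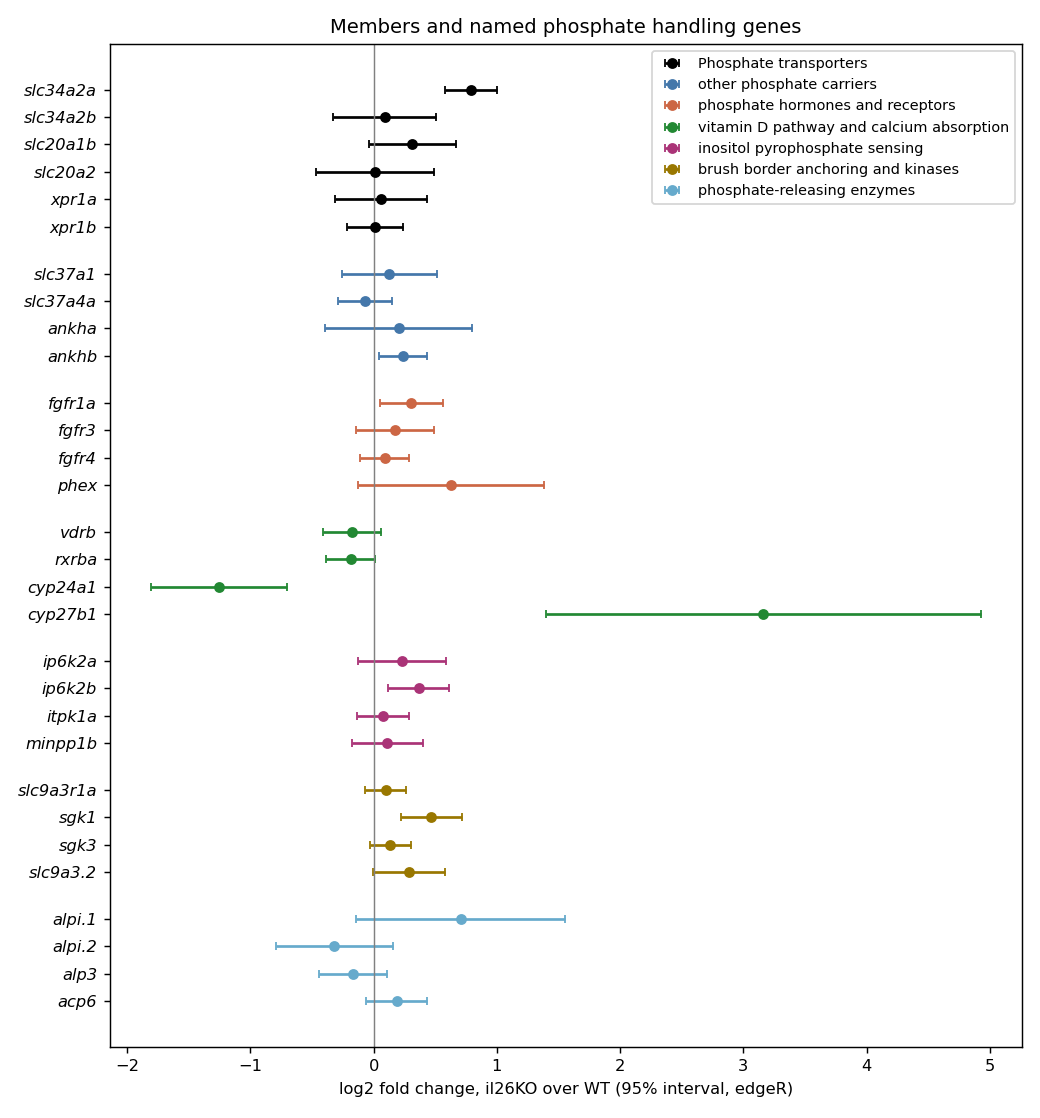
Log2 fold change with 95% interval (x axis, il26KO over WT, edgeR fit of 6 libraries) of the 6 tested transporter genes and the 24 named genes of the 6 phosphate handling lists, coloured by list. Most intervals include 0, slc34a2a lies at 0.79, and cyp24a1 (-1.25) and cyp27b1 (3.16) lie farthest out, with intervals wider than that of slc34a2a.

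Among kinases and anchors of the brush border, sgk1 stood out. It encodes a hormone-regulated kinase that in mammals keeps several ion transporters at the cell surface. It had 263, 277 and 229 CPM in WT replicates 1, 2 and 3 and 389, 318 and 357 CPM in il26KO replicates 1, 2 and 3, with no overlap. For sgk1 the log2 fold change was 0.47 ± 0.11 (SE; unadjusted p = 0.0025, edgeR adjusted p = 0.311). DESeq2 alone put it past the threshold, with an adjusted p-value of 0.0384. The scaffold gene slc9a3r1a, whose mammalian counterpart NHERF1 anchors phosphate cotransporters, had 205 to 223 CPM in WT and 225 to 234 CPM in il26KO. Its groups did not overlap, but the log2 fold change was only 0.098 ± 0.073 (SE; edgeR adjusted p = 0.901). For sgk3 the log2 fold change was 0.14 ± 0.074, and for the sodium-proton exchanger gene slc9a3.2 it was 0.29 ± 0.13 (SE). Of the 10 tested genes of this list, 7 were positive, against 5907 of 11095 over all tested genes, and 3 had libraries that did not overlap, against 10.9% of all tested genes. Nothing is read from these counts in so short a list.

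Inositol pyrophosphates report the phosphate status of a cell to Xpr1, and the ip6k genes encode kinases that make them. The levels of ip6k2b were 94.4, 98.6 and 85.9 CPM in WT replicates 1, 2 and 3 and 132, 104 and 123 CPM in il26KO replicates 1, 2 and 3. The il26KO libraries were all higher, by 0.36 ± 0.11 on the log2 scale (SE; unadjusted p = 0.00926, edgeR adjusted p = 0.558). For its paralog ip6k2a the groups overlapped, and the log2 fold change was 0.23 ± 0.15 (SE), or 0.019 without il26KO replicate 1. The inositol kinase gene itpk1a and the inositol phosphatase gene minpp1b had log2 fold changes of 0.075 ± 0.093 and 0.11 ± 0.12 (SE). Of the 9 tested genes of this list, 5 were positive and 4 negative.

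Of the hormones that govern phosphate, too few counts were found to test fgf23 (9 counts over the 6 libraries), pth1a (1) or stc1 (15), and pth1b was listed at 0. The hormone gene stc2a (81 counts) and the receptor gene pth2ra (68 counts) were tested. Their log2 fold changes were 0.30 ± 0.29 and 0.40 ± 0.42 (SE), and their libraries overlapped. Among receptors, fgfr1a, whose mammalian counterpart binds fibroblast growth factor 23 with a coreceptor, had 6.52 to 7.35 CPM in WT and 8.18 to 9.49 CPM in il26KO. Its log2 fold change was 0.30 ± 0.11 (SE; unadjusted p = 0.0244, edgeR adjusted p = 0.733), and the groups did not overlap. For fgfr3 and fgfr4 the log2 fold changes were 0.17 ± 0.14 and 0.089 ± 0.087 (SE). For phex, an endopeptidase gene mutated in human phosphate wasting, there were 5.89 to 11.7 CPM in WT and 9.91 to 21.1 CPM in il26KO, or 0.63 ± 0.33 as log2 fold change with its SE (edgeR adjusted p = 0.873). Without il26KO replicate 1 it was 0.21. All 8 tested genes of this list had a positive log2 fold change, with a median of 0.24. Over all tested genes 5907 of 11095 were positive, with a median of 0.011. Nothing is read from the signs of so few genes. In this list fgfr1b and casr lay near 0 (0.019 ± 0.18 and 0.014 ± 0.29 SE).

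Among other phosphate carriers, ankhb, which encodes an exporter linked to extracellular pyrophosphate, had 21.3 to 23.6 CPM in WT and 24.1 to 27.8 CPM in il26KO. For ankhb the log2 fold change was 0.24 ± 0.085 (SE; unadjusted p = 0.0245, edgeR adjusted p = 0.733). For its paralog ankha and the sugar phosphate antiporter genes slc37a1 and slc37a4a the log2 fold changes were 0.20 ± 0.26, 0.13 ± 0.17 and -0.072 ± 0.095 (SE). Of the 7 tested genes of this list, 5 were positive and 2 negative.

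Libraries of the genotypes overlapped for every tested gene of the list of phosphate-releasing enzymes. For alpi.2, an intestinal alkaline phosphatase gene, there were 109 to 173 CPM in WT and 99.96 to 149 CPM in il26KO, a log2 fold change of -0.32 ± 0.21 (SE). For alpi.1 there were 2.48 to 3.13 CPM in WT and 2.11 to 6.99 CPM in il26KO, with the highest value in il26KO replicate 1 (log2 fold change 0.70 ± 0.37 SE). Leaving out that library gave 0.19, and leaving out il26KO replicate 2 gave 0.98. The alkaline phosphatase gene alp3 and the acid phosphatase gene acp6 had log2 fold changes of -0.17 ± 0.12 and 0.19 ± 0.11 (SE). Of the 12 tested genes 0 were without overlap, against 10.9% of all tested genes. With so few genes nothing is read from that count. Of the 12, 6 were positive and 6 negative, with a median log2 fold change of 0.0012.

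**Figure D5:**
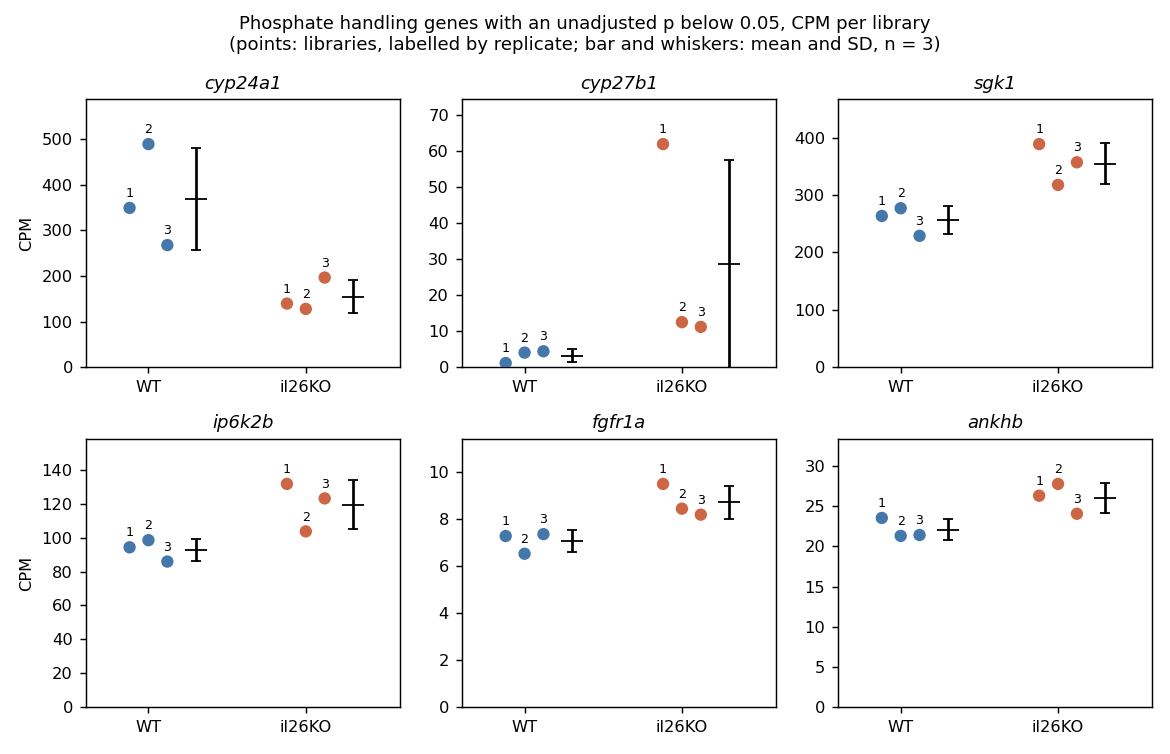
CPM per library (y axis, each panel starting at 0) of the 6 phosphate handling genes with an unadjusted p-value below 0.05, WT in blue and il26KO in orange, with the mean and SD of 3 libraries (the lower whisker of cyp27b1 in il26KO is cut at 0). The il26KO points lie below the WT points for cyp24a1 and above them in the other 5 panels, and il26KO replicate 1 of cyp27b1 (61.8 CPM) stands apart.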

How the data were processed

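Guts from 3 WT and 3 il26KO pools of 5-dpf larvae had been sequenced as stranded poly(A) libraries. Deposited files held unnormalized counts by gene symbol, which the authors made from reads aligned to danRer11. The aligner, counting tool, annotation and handling of multiply mapped reads are not given in the sources used here. Groups came from the sample titles, columns were matched by library name, and 0 further columns of per-sample values were present.

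The filterByExpr function of edgeR (version 4.0.16, under R 4.3.3; minimum count 10, minimum total 15) left 11095 of 15419 genes. After TMM normalization, a quasi-likelihood test contrasted the genotypes, with genotype as the only factor. P-values were two-sided, adjusted by Benjamini-Hochberg over all tested genes, and called below 0.05. Intervals are 95% intervals from the same fit. CPM used TMM library sizes, and correlations used log2 CPM with a prior count of 2. Alternatives were RLE factors, other filters, DESeq2 1.42.0, the likelihood ratio test, a robust fit, the replicate block and leaving out each library. A scaling to enterocyte markers was chosen after seeing the data.

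The members and lists were chosen with earlier results of these data known. Named genes were the members, any called list gene and the 4 list genes with the smallest p-values in each list and at least 10 counts in every library. P-values judge the genotype difference against the spread between pools of the same genotype. That spread does not separate genotype from parents or tank. Counts differed by more than sampling noise between all pairs of libraries (chi-square per degree of freedom 14.2 to 45.3). Detection floors of 3 counts cover counting error only. Gene spans came from the RefSeq gene table for GRCz12tu, which is not the build of the counts, so no coordinates are given. Levels were not scaled by coding length, as had been planned, because no such lengths were used here.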

Additional observations from a re-analysis of the deposited data

How the results depend on the processing

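The log2 fold change of slc34a2a was 0.69 to 0.82 without single libraries, 0.79 with the replicate block (edgeR adjusted p = 0.213) and 0.75 with enterocyte marker scaling, and 0 members were called in each of these fits (0 to 0 without single libraries). It was called under both other filters, RLE factors, the robust fit, DESeq2 and the likelihood ratio test. Deviations of same-numbered libraries from their group means had correlations of -0.226, -0.0426 and 0.114. These were not set against differently numbered pairs, so whether the numbers mark a shared batch was not tested. Over all genes 12 calls became 84 with DESeq2, 93 with the likelihood ratio test, 2 with the replicate block and 3 to 8 without single libraries. Phosphate handling genes called went from 0 to 2 with DESeq2 (cyp24a1, sgk1) and to 2 with the likelihood ratio test (cyp24a1, cyp27b1). Among the members and the named list genes, the replicate block changed no other call. It called 0 genes higher in il26KO. Thus gadd45ab and myca, called in the main fit (edgeR adjusted p = 0.0185 and 0.0408), were no longer called.

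Signs reversed without single libraries for slc34a2b (-0.049 to 0.33), slc20a2 (-0.22 to 0.14), xpr1a (-0.055 to 0.18), xpr1b (-0.058 to 0.10), ankha (-0.016 to 0.41) and slc37a1 (-0.027 to 0.24), and with enterocyte marker scaling for slc20a2 (-0.037) and xpr1b (-0.017). The causes were not tested. Without single libraries cyp24a1 ranged from -1.47 to -0.996 and cyp27b1 from 1.87 to 3.55. Length scaling was not run, since no transcript lengths were used here.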

Other observations

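Several genes had few counts beside abundant genes of the same marker list. There were 45 counts over the 6 libraries for fabp2 and 403783 for fabp1b.1, both enterocyte fatty acid-binding protein genes. The acinar gene ctrb1 had 45 counts and prss1 had 1631647. The muscle genes mylpfa and ckma had 2 and 1 counts and actc1b had 130725. The transporter gene slc20a1a was among the 1899 of 15419 listed genes with 0 counts in all 6 libraries. Whether it was not expressed or not counted was not tested.

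Among the 24 genes named for phosphate handling, il26KO replicate 1 held the highest level of the 6 libraries for cyp27b1, phex, alpi.1, sgk1, fgfr1a, fgfr3, ip6k2a and ip6k2b, as it did for slc34a2a and slc20a2. Replicate 2 of il26KO was highest for ankhb, ankha, fgfr4, sgk3, slc9a3.2, slc9a3r1a and acp6, and other libraries for the rest. The named genes were picked by their p-values between the genotypes, and the share over all tested genes was not computed.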
